A study of Mus musculus with 12 samples.

Results

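Ribosome-bound RNA of the arcuate nucleus was compared between young and adult mice, as the age difference of the pull-down libraries across all genes. The comparison holds 6 of the 12 libraries of the study, chosen by label: the 3 pull-downs at postnatal day 12 (P12) and the 3 pull-downs at postnatal day 60 (P60). The 6 supernatants, the lysate left after the same purifications, were used only to ask where the age difference of the pull-downs departed from that of the tissue. All mice carried Pomc-CreERT2 and Rosa26-eGFPL10a on a C57BL/6 background, so that tamoxifen switched on a GFP-tagged ribosomal protein L10a in cells in which the Pomc gene drove Cre. All received tamoxifen at the same dose for the same number of days, and none was untagged, so background binding to the beads was not measured. The interval from the last injection to collection was shorter at P12 than at P60, and age and interval cannot be told apart. The study describes its replicates as independent experiments. The number of mice behind a library and their sex are not stated in the sources used here. Every pull-down held reads of both the female-specific Xist (7.57 to 14.9 CPM at P12; 1.60, 1.70 and 29.5 CPM at P60) and the Y-linked Ddx3y (30.0 to 44.9 CPM at P12 and 68.9 to 99.3 CPM at P60), and neither was called.

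POMC neurons of the arcuate nucleus cleave proopiomelanocortin into melanocortin peptides, which lower food intake and raise energy use, and they sit beside AGRP/NPY neurons with the opposite action. In the mouse both sets of neurons are born before birth, while their projections, their hormone responses and the glia around them mature over the first postnatal weeks. The interval between the ages examined spans weaning and puberty. A tagged ribosome brings down the transcripts it is translating, so the pull-down is meant to be enriched for, and is not limited to, RNA of the tagged cells.

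Total counts ran from 6305778 to 19814679 at P12 and from 10791980 to 18774445 at P60, and the lowest total, that of P12 pull-down 1, came with the fewest genes with a count (12812, against 14262 to 14724 in the other 5 pull-downs). The ribosomal RNA precursor Rn45s took 18363, 49504.5 and 50732 CPM at P12 (gene counts scaled to the library total, in counts per 1e6). At P60 it took 16766, 40598 and 55686 CPM, so it rose with the replicate number at both ages. Its supernatant levels also rose with the number, from 17691 to 67082 CPM at P12 and from 15484 to 49860 CPM at P60. Whether same-numbered libraries were handled together is not stated in the sources used here. Rn45s led the mean level at both ages, followed by Lars2, a mitochondrial leucyl-tRNA synthetase. At P12 the spectrins Spna2 and Spnb2 (the files' symbols for Sptan1 and Sptbn1) and Mtap1b came next within the 5 highest genes, and at P60 Spna2, Mtap1b and the imprinted gene Peg3 did. The spread between replicates was wide: the common biological coefficient of variation was 0.615 among the pull-downs and 0.0955 among the supernatants.

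Of 13570 genes tested, 256 were higher and 422 lower at P60 (edgeR quasi-likelihood test, Benjamini-Hochberg adjusted p under 0.05), that is 1.89% and 3.11% of those tested. In 664 of these 678 genes (5.0% of those tested) the values of the 3 P12 and the 3 P60 libraries did not overlap, as in 26.6% of all tested genes. The balance of higher and lower calls depended on the scaling. Scaling by library size alone gave 445 higher and 263 lower, and moved the log2 fold changes of all genes by a median of 0.17. The 3 P60 libraries carried much of the test: it called 86 genes higher and 161 lower when P60 replicate 3 was left out, 103 and 215 for P60 replicate 1, and 137 and 223 for P60 replicate 2. Without P12 replicate 2 it called 202 and 263, and without P12 replicate 1 or 3 it called 353 and 463 or 266 and 301.

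**Figure D1:**
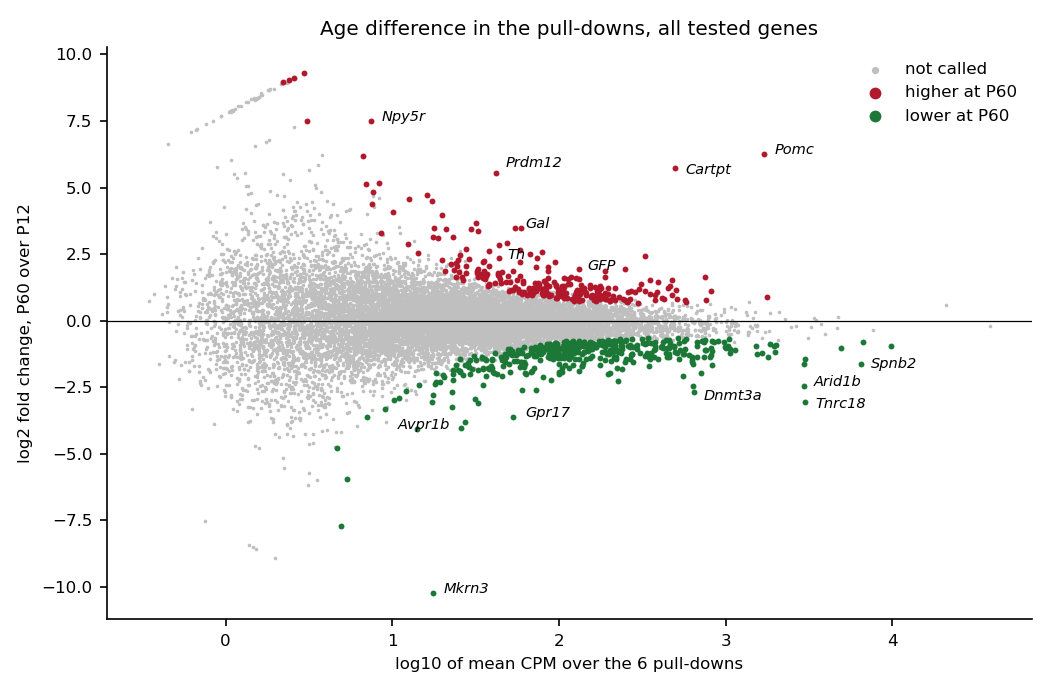
Each point is 1 of 13570 tested genes, with the log10 of its mean CPM over the 6 pull-downs on the x axis and its log2 fold change, P60 over P12, on the y axis. Called genes are red where higher at P60 (256) and green where lower (422), and Pomc and Cartpt stand apart at upper right while Tnrc18, Arid1b and Spnb2 are abundant genes below 0.

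The largest rises among abundant transcripts were those of the POMC neuron's own peptides. Pomc, the prohormone gene that also drives Cre, stood at 9.83, 21.9 and 81.7 CPM at P12 and 3077, 2529.7 and 4509.9 CPM at P60. All 3 P60 libraries lay above all 3 P12 libraries, and the P12 values differed widely among themselves. The log2 fold change, P60 over P12, was 6.27 ± 0.60, adjusted p = 2.69e-05 (here and in all that follows ± the standard error of the fit). Cartpt, which encodes the anorexigenic CART peptide made in many POMC neurons, stood at 13.3, 25.5 and 9.79 CPM at P12 and 1047, 881 and 1002 CPM at P60, and rose by 5.73 ± 0.33 on the log2 scale (adjusted p = 8.57e-08), with tight values at P60. Gal, the gene of the neuropeptide galanin, stood at 3.65, 6.89 and 12.8 CPM at P12 and 115, 87.8 and 103 CPM at P60. It rose by 3.48 ± 0.41 on the log2 scale (adjusted p = 0.000177), and every P60 library was above every P12 library. Asb4, a ubiquitin ligase subunit of POMC and other arcuate neurons, rose by 1.64 ± 0.28 on the log2 scale (adjusted p = 0.00235). Of the 13 tested peptides and co-expressed genes these 4 rose and 0 fell, with 0 lower at an unadjusted p under 0.05 and 0 in DESeq2. The median of the list was 1.64 on the log2 scale, against 0.0060 over all tested genes, and the 4 calls were made with each library left out in turn. The P12 supernatants held 7.90, 7.71 and 9.36 CPM of Pomc, close to the 9.83 CPM of P12 pull-down 1 and below the 21.9 and 81.7 CPM of the others. Fewer tagged cells, less RNA per cell and a larger share of background RNA on the beads at P12 cannot be told apart in these bulk libraries.

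The tag itself moved less. GFP stood at 77.1, 39.4 and 55.8 CPM at P12 and 256, 152 and 184 CPM at P60, and its log2 fold change was 1.61 ± 0.26, adjusted p = 0.00153. The groups did not overlap. In the supernatants GFP stood at 39.3, 28.4 and 28.9 CPM at P12 and 26.2, 27.1 and 18.2 CPM at P60, so the P12 pull-downs held from 39.4 CPM, close to the highest supernatant value, to 77.1 CPM. The larger age difference of Pomc and Cartpt than of GFP was read from the estimates and was not tested.

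Among transcription factors of POMC neurons some rose, while others gave overlapping groups. Prdm12, a zinc finger factor needed for Pomc expression, stood at 0.317, 3.22 and 0.656 CPM at P12 and 116, 70.6 and 59.8 CPM at P60, and the log2 fold change was 5.55 ± 0.63, adjusted p = 0.000123. It was near the detection limit in the P12 pull-downs, below its level in the P12 supernatants (6.55 to 8.02 CPM), and high in all 3 P60 pull-downs. Tbx3, a T-box factor of arcuate neurons, rose by 2.57 ± 0.33 on the log2 scale (adjusted p = 0.000393), from 20.3 ± 9.77 CPM to 137 ± 6.63 CPM (SD, n = 3). Sox3, an SRY-related factor of hypothalamic progenitors, rose by 2.47 ± 0.49 on the log2 scale (adjusted p = 0.00657), from 6.78 ± 1.85 CPM to 44.1 ± 23.6 CPM (SD, n = 3). The call was lost for Sox3 without P60 replicate 1 (adjusted p = 0.131). Isl1, a LIM homeodomain factor that switches on Pomc in the embryo, stood at 40.3, 22.7 and 42.9 CPM at P12 and 34.4, 18.7 and 44.7 CPM at P60, with overlapping groups (log2 fold change -0.29 ± 0.40, adjusted p = 0.789). Nkx2-1, the homeodomain factor that marks the basal hypothalamus, also overlapped, at 14.7, 52.0 and 45.7 CPM at P12 and 64.1, 38.7 and 42.3 CPM at P60 (log2 fold change 0.16 ± 0.41, adjusted p = 0.898). The homeodomain factors Six3 (log2 fold change 1.28 ± 0.36, adjusted p = 0.0523) and Six6 (log2 fold change 1.52 ± 0.51, adjusted p = 0.105) had positive estimates that did not pass. Six3 was called in DESeq2 (adjusted p = 0.0174), with scaling by library size alone (adjusted p = 0.0186), without a filter (adjusted p = 0.000358), with the length and GC correction (adjusted p = 0.0468), in the fit over all 12 libraries (adjusted p = 0.0123) and without P12 replicate 1 or 3 (adjusted p = 0.0428 and 0.0349). Six6 was called in DESeq2 (adjusted p = 0.0442) and in the fit over all 12 libraries (adjusted p = 0.014). Here and below, that fit shared 1 spread per gene between pull-downs and supernatants. It called 1292 genes higher and 1469 lower, and it may understate the spread of the pull-downs. In all, 3 of 16 tested factors rose and 0 fell, with a median of 0.31. At an unadjusted p under 0.05 0 were lower in edgeR, and DESeq2 called 5 higher and 0 lower.

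The 250 bases before the RefSeq start of Pomc, Cartpt, Prdm12 and Gal are given because these 4 genes rose together, with those of Mkrn3, the gene with the most negative log2 fold change, for contrast (RefSeq, GRCm38.p6; each read 5′ to 3′ on the gene's own strand). Capitals mark E-boxes (CANNTG, the core bound by basic helix-loop-helix factors) and TATA boxes (TATAAA), both searched on either strand. The windows are chr12:3954695-3954944 on the plus strand for Pomc, chr13:99900684-99900933 on the minus strand for Cartpt, chr2:31639787-31640036 on the plus strand for Prdm12, chr19:3414545-3414794 on the minus strand for Gal and chr7:62420154-62420403 on the minus strand for Mkrn3.
Pomc: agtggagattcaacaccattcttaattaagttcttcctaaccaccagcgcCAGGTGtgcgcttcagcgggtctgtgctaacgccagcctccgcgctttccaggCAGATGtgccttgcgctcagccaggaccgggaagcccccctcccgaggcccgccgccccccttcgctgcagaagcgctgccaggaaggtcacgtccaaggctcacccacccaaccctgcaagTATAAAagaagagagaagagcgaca
Cartpt: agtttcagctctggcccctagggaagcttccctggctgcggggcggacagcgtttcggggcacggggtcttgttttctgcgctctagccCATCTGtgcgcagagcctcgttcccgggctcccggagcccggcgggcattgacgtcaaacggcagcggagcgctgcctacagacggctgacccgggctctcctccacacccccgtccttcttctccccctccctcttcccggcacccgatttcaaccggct
Prdm12: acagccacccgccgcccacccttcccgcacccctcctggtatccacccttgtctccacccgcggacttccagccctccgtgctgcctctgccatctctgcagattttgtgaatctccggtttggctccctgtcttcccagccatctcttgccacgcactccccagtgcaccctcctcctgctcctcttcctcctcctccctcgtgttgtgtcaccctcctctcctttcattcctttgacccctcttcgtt
Gal: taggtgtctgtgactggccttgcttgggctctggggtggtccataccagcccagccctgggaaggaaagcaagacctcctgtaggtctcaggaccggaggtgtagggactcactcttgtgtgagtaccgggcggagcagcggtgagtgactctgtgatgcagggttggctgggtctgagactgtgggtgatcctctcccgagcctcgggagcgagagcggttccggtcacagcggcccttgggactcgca
Mkrn3: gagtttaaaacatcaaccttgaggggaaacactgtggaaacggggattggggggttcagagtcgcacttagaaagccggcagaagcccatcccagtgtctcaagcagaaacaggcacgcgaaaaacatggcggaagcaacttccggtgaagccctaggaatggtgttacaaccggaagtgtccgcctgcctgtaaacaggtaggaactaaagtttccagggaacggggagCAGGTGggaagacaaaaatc
An E-box was present in 66.2% and a TATA box in 12.4% of 32851 mouse windows of the same length. Pomc held 2 E-boxes and 1 TATA box, Cartpt 1 E-box and Mkrn3 1 E-box, while Prdm12 and Gal held 0 of either. The windows held 15 CpG dinucleotides for Pomc, 22 for Cartpt, 10 for Prdm12, 11 for Gal and 10 for Mkrn3, where the median over all windows was 6. In neurons Pomc is known to be driven mainly by distal enhancers, which lie outside the window shown.

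Receptors of neuropeptide Y, the peptide of the neighbouring AGRP/NPY neurons, were the next genes to stand out. Npy5r had 0, 0.167 and 0 CPM at P12 and 15.3, 13.6 and 15.8 CPM at P60, with 3 counts in the P12 libraries together and 638 at P60. The ratio of summed CPM was 216 (95% exact interval 73.7 to 1052, counting error only), and the call passed (adjusted p = 0.00322). Npy1r stood at 3.96, 5.39 and 3.28 CPM at P12 and 49.9, 43.2 and 33.8 CPM at P60, without overlap, and rose by 3.14 ± 0.48 on the log2 scale (adjusted p = 0.00125). Npy2r, the presynaptic form, rose by 1.85 ± 0.51 on the log2 scale (adjusted p = 0.0478), from 8.13 ± 3.05 CPM to 33.1 ± 5.78 CPM (SD, n = 3). Socs3, a feedback inhibitor of leptin signalling, rose by 4.38 ± 1.16 on the log2 scale (adjusted p = 0.0389), from 0.562 ± 0.690 CPM to 14.5 ± 4.17 CPM (SD, n = 3). Irs1, an adaptor of the insulin and IGF receptors, fell from 160.0 ± 38.4 CPM to 56.1 ± 8.65 CPM (log2 fold change -1.67 ± 0.24, adjusted p = 0.000848). Lepr, the leptin receptor, stood at 0.317, 1.83 and 0.908 CPM at P12 and 7.54, 15.98 and 3.80 CPM at P60, with higher values in all P60 libraries but a log2 fold change of 2.96 ± 1.21, adjusted p = 0.194, and was called in DESeq2 (adjusted p = 0.0469) and in the fit over all 12 libraries (adjusted p = 0.0159). Of 35 tested genes of metabolic signalling, 4 rose and 1 fell, with a median of 0.071. The count of rising genes was 2 without P12 replicate 3 or with any 1 of the P60 replicates left out. Npy2r and Socs3 supplied the difference: calls were lost for Npy2r without P12 replicate 2 or 3 (adjusted p = 0.0808 and 0.0512), without P60 replicate 1, 2 or 3 (adjusted p = 0.102, 0.208 and 0.239) and with the length and GC correction (adjusted p = 0.0824), and for Socs3 without P12 replicate 3 (adjusted p = 0.0679) and without P60 replicate 1, 2 or 3 (adjusted p = 0.201, 0.157 and 0.133).

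Other genes with the largest rises were low at P12, with most libraries under 1 CPM. Gas2, a cytoskeletal protein, stood at 0.159, 0.389 and 0.555 CPM at P12 and 19.3, 14.9 and 14.7 CPM at P60 (log2 fold change 5.17 ± 0.98, adjusted p = 0.00499). Il13ra1, a receptor subunit for interleukin 13 and interleukin 4, stood at 0.317, 0.555 and 0.454 CPM at P12 and 17.2, 17.5 and 10.2 CPM at P60 (log2 fold change 4.84 ± 0.99, adjusted p = 0.00863). Pon2, an intracellular paraoxonase, stood at 0.317, 1.83 and 0.404 CPM at P12 and 28.5, 13.3 and 31.6 CPM at P60 (log2 fold change 4.57 ± 0.85, adjusted p = 0.00448). In each of the 3 the groups were far apart. Ctsz, a lysosomal protease, rose by 4.51 ± 0.96 on the log2 scale (adjusted p = 0.0108), Hsf4, a heat shock factor, by 4.70 ± 1.14 on the log2 scale (adjusted p = 0.0241), and Agxt2l1, a phospho-lyase of ethanolamine phosphate, by 4.07 ± 1.06 on the log2 scale (adjusted p = 0.0361). Hapln2, a link protein of the matrix at nodes of Ranvier, rose by 6.20 ± 1.42 on the log2 scale (adjusted p = 0.0176), with 0, 0.389 and 0 CPM at P12 and 20.2, 9.32 and 10.01 CPM at P60. Several of these low genes missed the threshold with 1 library left out or in DESeq2, while their log2 fold changes in those fits ran from 3.70 (Agxt2l1) to 6.40 (Hapln2). Calls were lost for Gas2 without P60 replicate 1 (adjusted p = 0.0517), for Il13ra1 without P60 replicate 1 or 2 (adjusted p = 0.0714 and 0.092) and for Pon2 without P60 replicate 3 (adjusted p = 0.0802). They were also lost for Ctsz without P12 replicate 2 (adjusted p = 0.0541) and without P60 replicate 1 or 3 (adjusted p = 0.102 and 0.0723), for Agxt2l1 without P12 replicate 2 (adjusted p = 0.111) and without P60 replicate 1, 2 or 3 (adjusted p = 0.0832, 0.172 and 0.2) and for Hapln2 without P60 replicate 1, 2 or 3 (adjusted p = 0.148, 0.0669 and 0.085). For Hsf4 the loss came without P60 replicate 1, 2 or 3 (adjusted p = 0.144, 0.0667 and 0.108) and in DESeq2 (adjusted p = 0.186). Rnf128, an E3 ubiquitin ligase, had more reads at P12 (2.38, 2.67 and 1.41 CPM at P12 and 34.5, 31.9 and 45.8 CPM at P60), rose by 3.96 ± 0.56 on the log2 scale (adjusted p = 0.000775), and was called with each library left out.

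**Figure D2:**
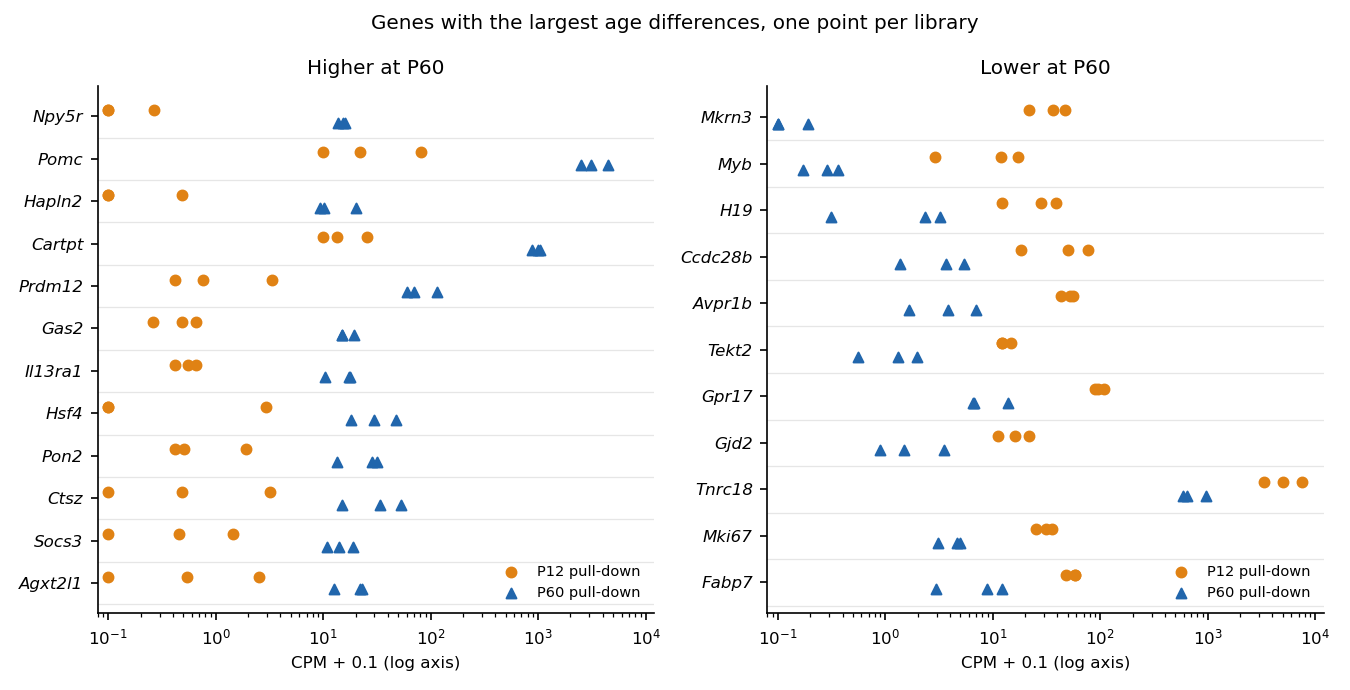
CPM plus 0.1 on a log axis for the 12 genes with the largest positive (left) and 11 with the largest negative (right) log2 fold changes that met the naming rule, with 1 point per pull-down library (circles P12, triangles P60). No gene shown has overlapping groups, and Pomc, Cartpt and Tnrc18 are the only ones with a library above 500 CPM.

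Genes of other arcuate neurons did not share one direction. Agrp, which marks the neurons that oppose POMC neurons, was uneven in both groups, at 16.2, 9.16 and 0.0505 CPM at P12 and 1.09, 13.2 and 0.834 CPM at P60 (log2 fold change -0.81 ± 1.35, adjusted p = 0.83). Npy stood at 9.83, 8.66 and 18.3 CPM at P12 and 12.8, 8.15 and 12.0 CPM at P60, with full overlap (log2 fold change -0.35 ± 0.64, adjusted p = 0.851). In that list of 9 tested genes, Serpina3n, a secreted protease inhibitor, rose by 2.93 ± 0.44 on the log2 scale (adjusted p = 0.00112) and Otp, a homeodomain factor, fell with a log2 fold change of -1.99 ± 0.49, adjusted p = 0.0277. The call was lost for Otp without P12 replicate 1 or 2 (adjusted p = 0.0699 and 0.0571) and without P60 replicate 1, 2 or 3 (adjusted p = 0.0593, 0.115 and 0.155). Some dopaminergic genes rose. Th, the rate-limiting enzyme of dopamine synthesis, stood at 36.3, 19.8 and 23.9 CPM at P12 and 127, 152 and 80.6 CPM at P60 (log2 fold change 2.02 ± 0.31, adjusted p = 0.00126). Slc6a3, the dopamine transporter, rose by 3.15 ± 0.56 on the log2 scale (adjusted p = 0.00324) and Aldh1a1, an aldehyde dehydrogenase of some dopamine neurons, by 2.35 ± 0.38 on the log2 scale (adjusted p = 0.00162). The call was lost for Slc6a3 without P60 replicate 2 (adjusted p = 0.0556). The 3 dopaminergic genes that rose had supernatant estimates of 2.05 for Th, 2.61 for Slc6a3 and 2.31 for Aldh1a1, and the difference between the fractions was not called for any of them (adjusted p = 0.978, 0.805 and 0.986). Of the 12 tested members these 3 rose. Genes of neighbouring nuclei fell in 3 of 19 cases, with 0 higher: Lhx6 (log2 fold change -2.90 ± 0.68) and Sim1 (log2 fold change -1.44 ± 0.38), transcription factors, and Hdc, the histamine-producing enzyme (log2 fold change -1.01 ± 0.25). These 3 calls fell to 0 without P12 replicate 3, P60 replicate 2 or P60 replicate 3, to 1 without P12 replicate 2, without P60 replicate 1 or with scaling by library size alone, and went to 5 without P12 replicate 1. Of 8 tested genes of kisspeptin, neurokinin B and dynorphin neurons edgeR called 0, with 2 higher and 0 lower at an unadjusted p under 0.05 and 0 in DESeq2. Tac2, which encodes neurokinin B, stood at 0, 1.55 and 0.353 CPM at P12 and 6.16, 6.02 and 5.56 CPM at P60 (log2 fold change 2.96 ± 1.54, adjusted p = 0.345). It was called in the fit over all 12 libraries (adjusted p = 0.0317).

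Genes that process and store peptides rose in part. Ptprn, a receptor-like phosphatase of dense-core granules, stood at 193, 155 and 152 CPM at P12 and 639.9, 429 and 544 CPM at P60 and rose by 1.51 ± 0.19 on the log2 scale (adjusted p = 0.000356). Pcsk1n, an inhibitor of prohormone convertase 1, rose by 1.11 ± 0.19 on the log2 scale (adjusted p = 0.00284), Pam, the enzyme that amidates peptides, by 1.03 ± 0.25 on the log2 scale (adjusted p = 0.0256) and Vgf, a granin-like precursor, by 0.98 ± 0.22 on the log2 scale (adjusted p = 0.0145). Pcsk1, the convertase itself, had higher values in every P60 library, at 12.2, 10.1 and 3.84 CPM at P12 and 23.4, 35.5 and 37.2 CPM at P60, and did not pass (log2 fold change 1.75 ± 0.54, adjusted p = 0.0779). It was called in DESeq2 (adjusted p = 0.0238), with scaling by library size alone (adjusted p = 0.0492), without a filter (adjusted p = 0.0332), in the fit over all 12 libraries (adjusted p = 0.00774) and without P12 replicate 1 (adjusted p = 0.0255). Of 20 tested members 4 rose and 0 fell (0 lower at an unadjusted p under 0.05, 0 in DESeq2), with a median of 0.52, and 7 rose with scaling by library size alone. Without P60 replicate 1 or 3 the count was 2. With the length and GC correction the count stayed at 4, and the median was 0.17. Calls were lost for Pam without P60 replicate 1, 2 or 3 (adjusted p = 0.0967, 0.0672 and 0.105), and for Vgf without P12 replicate 3 (adjusted p = 0.0509) and without P60 replicate 1 or 3 (adjusted p = 0.0578 and 0.105).

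Genes of nuclear-encoded oxidative phosphorylation leaned upward. Of 73 tested subunits, 62 had a positive log2 fold change, 8 rose and 0 fell, with 0 lower at an unadjusted p under 0.05 and 0 in DESeq2. The median was 0.56. Ndufa6, a complex I subunit, stood at 42.5, 39.9 and 66.9 CPM at P12 and 175, 114 and 140.4 CPM at P60 (log2 fold change 1.33 ± 0.26, adjusted p = 0.00655). Cox6b1, of complex IV, rose by 1.13 ± 0.26 on the log2 scale (adjusted p = 0.0176). These transcripts are short, and short transcripts as a whole were higher at P60. Over 10 bins of tested genes by exonic length, the median log2 fold change was 0.43 in the bin of the shortest genes (median 1437 bases), -0.0017 in the fifth bin (4298 bases) and -0.25 in the bin of the longest (12799 bases). In the supernatants the medians were 0.034 in the first and -0.055 in the last of the same bins. With length and GC offsets in the fit the median of the oxidative phosphorylation list was 0.13, and 1 member was called higher. The list had 18 higher members with scaling by library size alone, 16 in DESeq2, 2 without P60 replicate 1 and 1 without P12 replicate 2, P60 replicate 2 or P60 replicate 3. Only Ndufa6 was called under each of these. The part that length has in the calls of single genes was not tested beyond this correction.

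**Figure D3:**
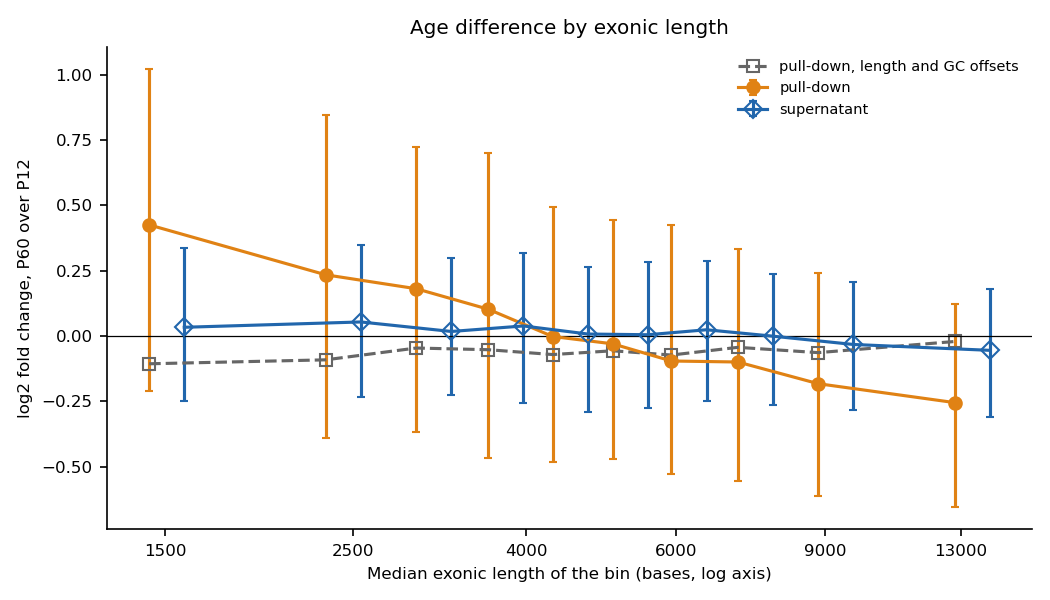
Median log2 fold change, P60 over P12, in 10 bins of equal gene number by exonic length (log axis, bases), for the pull-downs (circles), the supernatants (diamonds) and the pull-downs with length and GC offsets (squares). Bars span the quartiles of the genes in a bin, and the supernatant points are drawn slightly to the right of their bin. The pull-down medians fall from 0.43 to -0.25 and the corrected ones lie between -0.11 and -0.021.

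At the other end, Mkrn3 had the most negative log2 fold change. Mkrn3 is an imprinted, paternally expressed gene (chr7:62417593-62420153, mm10) whose loss in humans brings puberty forward, and its hypothalamic RNA is known to drop before puberty in the mouse. It stood at 21.7, 46.9 and 36.3 CPM at P12 and 0, 0 and 0.0927 CPM at P60, with 1700 counts over the P12 and 1 count over the P60 libraries. The P12 to P60 ratio of summed CPM was 1670.2 (95% exact interval 299 to 66008, counting error only). In the supernatants it stood at 24.0, 29.0 and 20.9 CPM at P12 and 0.997, 1.16 and 0.929 CPM at P60. H19, an imprinted non-coding RNA of fetal growth, fell from 26.3 ± 13.5 CPM to 1.85 ± 1.49 CPM (SD, n = 3; log2 fold change -4.06 ± 0.83, adjusted p = 0.00894), and its call was lost without P12 replicate 3 (adjusted p = 0.0518). Both directions occurred in the list of 26 tested genes of this kind, of which 2 rose and 6 fell (median -0.40). Plagl1, an imprinted zinc finger factor, stood at 79.3, 88.6 and 110.0 CPM at P12 and 472, 312 and 428 CPM at P60, and rose by 1.94 ± 0.22 on the log2 scale (adjusted p = 0.000101). Dlk1, an imprinted Notch-like ligand, stood at 90.4, 60.4 and 72.0 CPM at P12 and 392, 227 and 290.5 CPM at P60, and rose by 1.85 ± 0.22 on the log2 scale (adjusted p = 0.000218). The fallers besides Mkrn3 and H19 were Nnat (log2 fold change -1.45 ± 0.19), Meg3 (log2 fold change -1.37 ± 0.24), Mest (log2 fold change -1.34 ± 0.22) and Peg3 (log2 fold change -0.80 ± 0.22), and Peg3 stood close to the threshold (adjusted p = 0.0482). The call was lost for Peg3 without P12 replicate 2 or 3 (adjusted p = 0.17 and 0.0909), without P60 replicate 1, 2 or 3 (adjusted p = 0.102, 0.0901 and 0.165), with scaling by library size alone (adjusted p = 0.0617) and with the length and GC correction (adjusted p = 0.0836).

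Genes that modify chromatin fell in 12 of 44 tested cases and rose in 0 (0 higher at an unadjusted p under 0.05, 0 in DESeq2), against 3.11% of all genes lower, with a median of -0.46. Dnmt3a, the DNA methyltransferase that sets methylation in young neurons, stood at 1210.2, 1053 and 1016 CPM at P12 and 198, 193 and 185 CPM at P60 and fell with a log2 fold change of -2.68 ± 0.19, adjusted p = 1.02e-06. Its replicates were close to one another at both ages. Tet1, which oxidises methylcytosine, fell from 123 ± 13.9 CPM to 22.5 ± 4.38 CPM (SD, n = 3; log2 fold change -2.62 ± 0.27, adjusted p = 4.63e-05). Arid1b, a subunit of the BAF remodelling complex, stood at 5117, 3931 and 5588 CPM at P12 and 1046, 942 and 1026 CPM at P60 (log2 fold change -2.45 ± 0.21, adjusted p = 8.56e-06). Tnrc18, a chromatin-associated protein with a trinucleotide repeat, stood at 3333, 7546 and 5028 CPM at P12 and 957, 591 and 644 CPM at P60 (log2 fold change -3.06 ± 0.28, adjusted p = 1.88e-05). The corepressor Bcor fell with a log2 fold change of -2.25 ± 0.30, adjusted p = 0.000512, and Bahcc1, a BAH domain protein, with a log2 fold change of -2.45 ± 0.38, adjusted p = 0.00125. Bahcc1 is not a member of the list. The other members that fell were Yeats2, Kdm6b, Tet3, Smarca4, Chd7, Dnmt1 and Nsd1. The count was 7 without P60 replicate 3 and 8 with the length and GC correction, under which Dnmt3a, Tet1, Arid1b, Tnrc18 and Bcor were still called.

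Long transcripts of the spectrin and microtubule cytoskeleton, among the most abundant in the P12 pull-downs, fell in part. Spnb2 stood at 7502, 9417 and 11710.1 CPM at P12 and 2635, 4130.0 and 3515 CPM at P60 (log2 fold change -1.63 ± 0.25, adjusted p = 0.00125). Ank2, an ankyrin that anchors membrane proteins to spectrin, stood at 3374, 4347 and 5245 CPM at P12 and 1251, 1918 and 1562 CPM at P60 (log2 fold change -1.61 ± 0.24, adjusted p = 0.00121). Apc, which binds microtubule ends, fell with a log2 fold change of -1.68 ± 0.22, adjusted p = 0.000393, and Macf1, which links actin to microtubules, with a log2 fold change of -1.44 ± 0.25, adjusted p = 0.00272. No group overlapped in these 4 genes. Spna2 fell with a log2 fold change of -0.97 ± 0.25, adjusted p = 0.0379, but not without P12 replicate 2 or 3 (adjusted p = 0.0986 and 0.143), without P60 replicate 1 or 3 (adjusted p = 0.0808 and 0.207) and with the length and GC correction (adjusted p = 0.0766). In all, 13 of 37 cytoskeletal and axonal transport genes fell, against 3.11% of all tested genes, and 0 rose (2 higher at an unadjusted p under 0.05, 2 in DESeq2, 2 with scaling by library size alone). Their summed level was 74034 to 91275 CPM at P12 and 43422 to 70340.3 CPM at P60. Without P12 replicate 3 or P60 replicate 1 the count of falling genes was 8, and without P60 replicate 3 it was 6. With the length and GC correction 9 fell and 1 rose, and Ank3, Plec, Spnb4 and Syne1 lost their calls as Spna2 did. The supernatant median of the list was 0.058 where the pull-down median was -0.35, and 12 members had a more negative age difference in the pull-down than in the supernatant by the test of that difference. Those 12 calls were made without the length and GC correction.

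Genes of immature neurons fell in 18 of 42 tested cases, with a median of -0.64. Dpysl3, a collapsin response mediator of growing axons, stood at 275, 363 and 312 CPM at P12 and 87.0, 104 and 78.3 CPM at P60 (log2 fold change -1.98 ± 0.22, adjusted p = 0.000101). Tubb2b, a tubulin of migrating neurons, fell from 306 ± 91.5 CPM to 86.4 ± 10.3 CPM (SD, n = 3; log2 fold change -1.99 ± 0.25, adjusted p = 0.000263). Dcx, the doublecortin gene that marks migrating neurons, stood at 56.5, 77.9 and 45.2 CPM at P12 and 15.7, 14.2 and 29.3 CPM at P60 (log2 fold change -1.76 ± 0.38, adjusted p = 0.0134). Fabp7, a fatty acid binding protein of radial glia and astrocytes, fell with a log2 fold change of -2.94 ± 0.48, adjusted p = 0.00179. The count of falling members ran from 12 to 16 with each library left out and was 21 with the length and GC correction. The call was lost for Dcx without P12 replicate 2 (adjusted p = 0.0897) and without P60 replicate 1 or 2 (adjusted p = 0.0784 and 0.0827). The 1 member that rose was Cd24a, a surface glycoprotein, at 3.96, 14.8 and 9.79 CPM at P12 and 74.1, 88.0 and 71.2 CPM at P60. Its groups did not overlap (log2 fold change 2.83 ± 0.43, adjusted p = 0.00125), and its age difference was more positive than that of the supernatant by 3.18 ± 0.51, adjusted p = 0.00142. In the tissue the list fell as well: 31 of 43 members were lower in the P60 supernatants, with a median of -0.60.

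Of the proliferation genes only Mki67, the Ki-67 antigen, passed, at 35.8, 30.9 and 25.2 CPM at P12 and 2.97, 4.53 and 4.82 CPM at P60 (log2 fold change -3.04 ± 0.54, adjusted p = 0.00324), while the median of 26 tested members was -1.16. DESeq2 called 3 lower. Axon guidance genes fell in 6 of 47 cases, among them the semaphorin receptor Nrp1 (log2 fold change -1.61 ± 0.37), the repellent Slit2 (log2 fold change -1.47 ± 0.31) and its receptor Robo2 (log2 fold change -1.14 ± 0.28). That count was 0 without P60 replicate 1 or 2, 1 without P12 replicate 2 or P60 replicate 3, 2 with the length and GC correction and 3 with scaling by library size alone. Of 35 matrix genes 2 rose and 4 fell. The fallers included Ncan, the brain proteoglycan neurocan, which stood at 125, 187 and 155 CPM at P12 and 32.9, 54.5 and 48.9 CPM at P60 (log2 fold change -1.93 ± 0.28, adjusted p = 0.000848), and Ptprz1 (log2 fold change -1.66 ± 0.24, adjusted p = 0.000974). The risers were Hapln2 and Spp1. Spp1, the gene of osteopontin, had 0 counts in the P12 libraries and 200 counts at P60, which is 67.9-fold higher against a floor of 3 counts over the group, with an exact 95% lower limit of 54.7-fold for counting error. Its P60 level was 4.43 ± 2.08 CPM (SD, n = 3; adjusted p = 0.0495). The call was lost for Spp1 without P12 replicate 2 or 3 (adjusted p = 0.103 and 0.0842), without P60 replicate 1, 2 or 3 (adjusted p = 0.113, 0.188 and 0.185), with the length and GC correction (adjusted p = 0.0675) and with the stricter filter (adjusted p = 0.0502). In the matrix list 0 genes rose with any 1 of the P60 replicates left out, and 2 fell without P12 replicate 2 or with any 1 of the P60 replicates left out, whereas 7 fell without P12 replicate 1.

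Synaptic genes went both ways. Of 41 tested presynaptic genes 5 rose and 7 fell. Sncg, gamma-synuclein, stood at 22.7, 37.0 and 32.8 CPM at P12 and 148, 149.8 and 130.1 CPM at P60 (log2 fold change 2.03 ± 0.27, adjusted p = 0.000441), and Syt4, a synaptotagmin of dense-core vesicles, rose by 1.63 ± 0.26 on the log2 scale (adjusted p = 0.00162). The active zone scaffolds Erc1 (log2 fold change -1.80 ± 0.19, adjusted p = 7.71e-05) and Erc2 (log2 fold change -1.70 ± 0.23, adjusted p = 0.00067) fell. Without P60 replicate 3, 3 rose and 3 fell. Postsynaptic scaffolds fell in 5 of 38 cases and rose in 1, with Dlg2 (PSD-93) at 478, 516 and 495 CPM at P12 and 241, 212 and 203 CPM at P60 (log2 fold change -1.36 ± 0.18, adjusted p = 0.000512), and 3 fell without P60 replicate 3. Among 59 potassium channel genes 2 rose, where 1.89% of all tested genes did, and 0 fell (1 at an unadjusted p under 0.05, 0 in DESeq2). The risers were the voltage-gated Kcna1 (log2 fold change 1.67 ± 0.44) and the pacemaker channel Hcn2 (log2 fold change 1.00 ± 0.24). The number of rising channels was 0 without P60 replicate 1 or 3, 1 without P12 replicate 3 or P60 replicate 2, 4 without P12 replicate 1 or with the length and GC correction, 6 with scaling by library size alone and 7 in DESeq2. Of 34 sodium and calcium channel genes 1 rose and 1 fell, where 1.89% and 3.11% of all tested genes did. The T-type calcium channel Cacna1g was the one that fell (log2 fold change -1.03 ± 0.25). That call was lost for Cacna1g without P12 replicate 2 or 3 (adjusted p = 0.111 and 0.0624), without P60 replicate 1, 2 or 3 (adjusted p = 0.12, 0.0541 and 0.12) and with the length and GC correction (adjusted p = 0.0806). Of 42 transmitter receptor subunits edgeR called 0, with 2 higher and 4 lower at an unadjusted p under 0.05 and 2 lower in DESeq2.

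**Figure D4:**
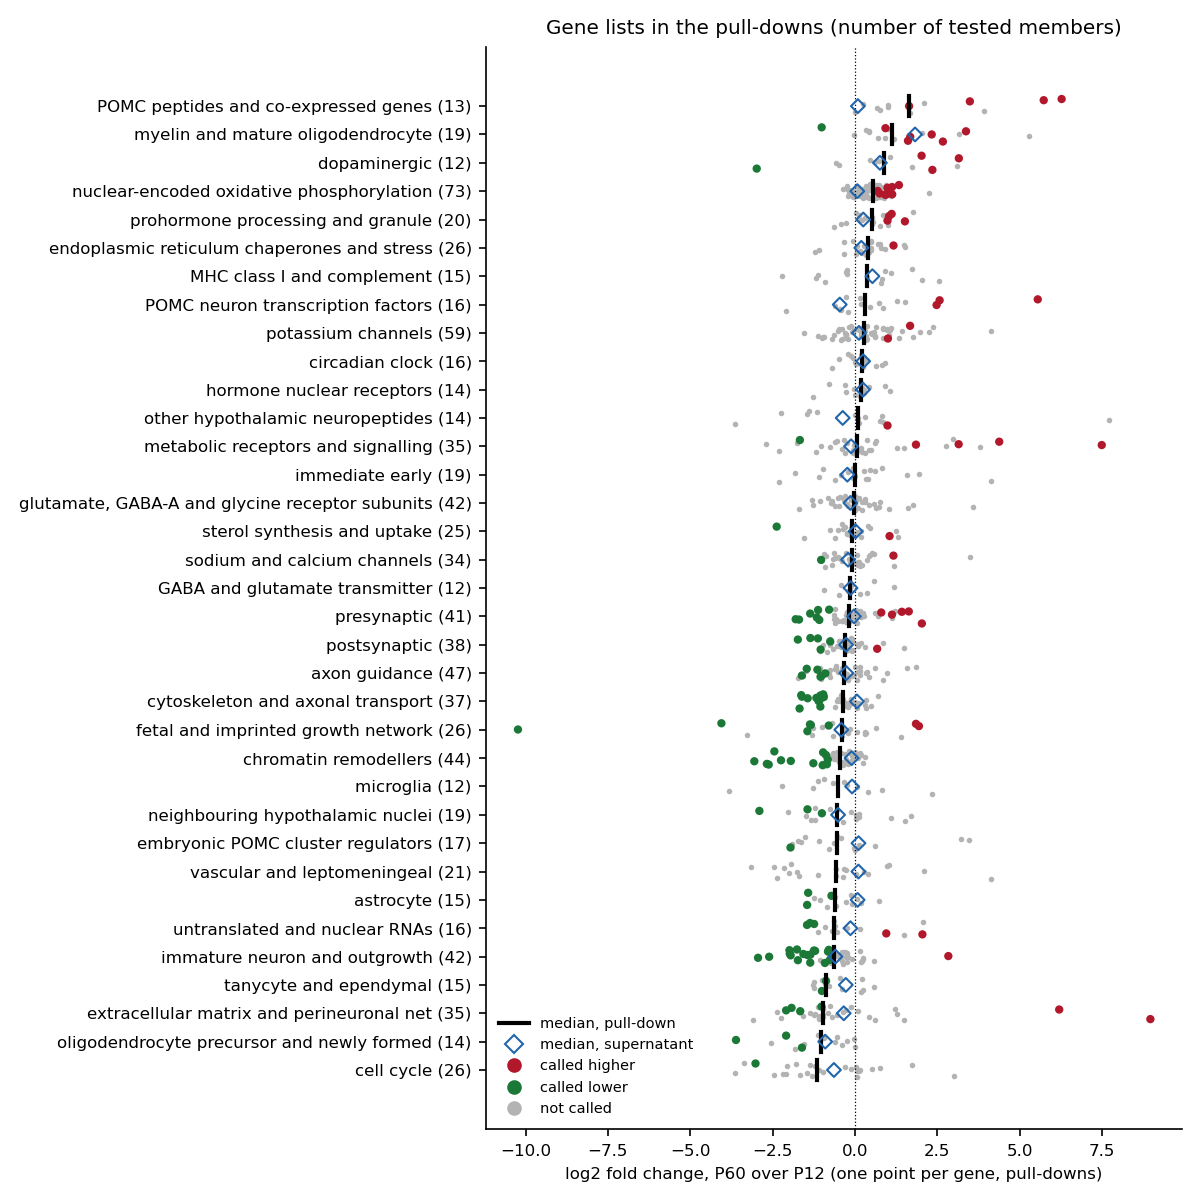
Log2 fold change, P60 over P12, of the tested members of each list with at least 12 tested members, with 1 point per gene (red called higher, green called lower, grey not called). Black bars are the pull-down medians, open diamonds the supernatant medians and the dotted line the median of all tested genes. POMC peptides have the highest pull-down median (1.64), with the supernatant median at 0.086.

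Markers of glia also changed in the pull-downs, beside the neuronal genes. Gpr17, a receptor of newly formed oligodendrocytes, stood at 89.0, 94.6 and 108 CPM at P12 and 6.53, 6.39 and 13.8 CPM at P60 (log2 fold change -3.61 ± 0.37, adjusted p = 5e-05), and Bcas1, of the same stage, fell with a log2 fold change of -1.61 ± 0.31, adjusted p = 0.0058. Of 14 tested genes of precursors and newly formed cells 3 fell, 0 rose (0 also at an unadjusted p under 0.05 and in DESeq2) and 0 had a positive log2 fold change. The precursor marker Pdgfra stood at 24.4, 51.2 and 24.0 CPM at P12 and 8.63, 13.6 and 28.1 CPM at P60 (log2 fold change -1.14 ± 0.52, adjusted p = 0.266). The list summed to 522 to 552 CPM at P12 and 217 to 283 CPM at P60. In the supernatants 12 of its 14 members were lower and 0 higher, with a median of -0.91 against -1.04 in the pull-downs. The test of the difference between the fractions called 0 of them. Genes of mature oligodendrocytes went the other way: 6 of 19 rose, among them the myelin protein Mal, Plekhh1 (log2 fold change 2.67 ± 0.40, adjusted p = 0.00121) and Ermn (log2 fold change 2.33 ± 0.43, adjusted p = 0.00385), and the list summed to 1072 to 1389 CPM at P12 and 1676 to 1772 CPM at P60. Mal was at 0, 10.4 and 4.39 CPM at P12 and at 51.9, 45.2 and 83.7 CPM at P60 (log2 fold change 3.37 ± 0.79, adjusted p = 0.0196). Mbp, which encodes myelin basic protein and, from the same locus, other proteins of neurons and immune cells, fell with a log2 fold change of -1.01 ± 0.20, adjusted p = 0.00605. In the supernatants 19 of 20 tested genes of this list were higher and 0 lower, with a median of 1.82 against 1.11 in the pull-downs. By the test of the difference 2 members had a more negative age difference in the pull-down and 0 a more positive one. Without P60 replicate 1 or 3 the count of rising myelin genes was 3, and calls were lost for Mal without P60 replicate 1, 2 or 3 (adjusted p = 0.0543, 0.0619 and 0.152) and in DESeq2 (adjusted p = 0.163), for Ermn without P60 replicate 1 (adjusted p = 0.0516) and for Mbp without P60 replicate 3 (adjusted p = 0.0802).

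Of 15 astrocyte genes 3 fell and 0 rose (0 also at an unadjusted p under 0.05 and in DESeq2), with Gfap, the intermediate filament of astrocytes, at 404, 276 and 452 CPM at P12 and 194, 156 and 127 CPM at P60 (log2 fold change -1.42 ± 0.22, adjusted p = 0.00125) and Gja1, their connexin, at 16.02, 32.2 and 38.5 CPM at P12 and 14.4, 14.4 and 12.7 CPM at P60 (log2 fold change -1.25 ± 0.48, adjusted p = 0.16). Gja1 was called without P12 replicate 1 (adjusted p = 0.0275) and in the fit over all 12 libraries (adjusted p = 0.00981). In the supernatants 7 of the 15 astrocyte genes were higher and 5 lower. In the pull-downs the list summed to 1849 to 2032 CPM at P12 and 1477 to 1779 CPM at P60. Only 1 member fell without P12 replicate 2 or 3, with any 1 of the P60 replicates left out or with scaling by library size alone, and 5 fell without P12 replicate 1. Tanycyte and ependymal genes fell in 2 of 15 cases (Hdc and Vim) and summed to 342 to 365 CPM at P12 and 239 to 248 CPM at P60. That count was 1 without P12 replicate 1 and 0 without each other library or with scaling by library size alone. EdgeR called 0 of 12 microglial genes (1 lower at an unadjusted p under 0.05, 0 in DESeq2; summed level 40.3 to 53.6 CPM at P12 and 29.3 to 38.4 CPM at P60). It called 0 of 21 vascular and leptomeningeal genes (1 higher and 2 lower at an unadjusted p under 0.05, 1 and 1 in DESeq2; summed level 93.4 to 218 CPM at P12 and 74.7 to 128 CPM at P60). Among these glial and vascular lists only the microglial Trem2 and the ependymal Tmem212 had 0 counts in all 6 pull-downs, and among 10 blood genes 5 did, the globins Hbb-b1 and Hbb-b2 included. What part RNA of these cells had in the differences of other genes was not tested.

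Avpr1b, a vasopressin receptor known from pituitary corticotrophs and hippocampal neurons, had the fifth most negative log2 fold change among named genes. It stood at 52.7, 56.1 and 42.6 CPM at P12 and 3.70, 1.54 and 6.95 CPM at P60, without overlap (log2 fold change -3.82 ± 0.53, adjusted p = 0.000718), and at 2.19, 2.49 and 2.16 CPM at P12 and 1.64, 1.52 and 2.17 CPM at P60 in the supernatants. It was the only one of 5 tested pituitary genes to pass. Of the 15 pituitary genes listed, 5 had 0 counts in all 6 pull-downs, among them the hormone subunit genes Lhb, Fshb and Cga. Gh, the growth hormone gene, stood at 0, 1.499 and 0 CPM at P12 and at 0, 2.02 and 0.649 CPM at P60. Other large falls were those of Myb, a transcription factor of blood progenitors (11.7, 2.78 and 17.1 CPM at P12 and 0.0725, 0.266 and 0.185 CPM at P60; log2 fold change -5.96 ± 1.32, adjusted p = 0.0145), and Ccdc28b, a protein of the cilium base (77.5, 18.2 and 50.01 CPM at P12 and 3.55, 1.28 and 5.28 CPM at P60; log2 fold change -4.02 ± 0.62, adjusted p = 0.00125). Gjd2, the neuronal gap junction protein connexin 36, fell with a log2 fold change of -3.33 ± 0.84, adjusted p = 0.0286 and Tekt2, a tektin of motile cilia, with a log2 fold change of -3.62 ± 0.94, adjusted p = 0.0358. Calls were lost for Myb without P12 replicate 3 (adjusted p = 0.0863) and without P60 replicate 1, 2 or 3 (adjusted p = 0.0784, 0.057 and 0.0848), for Gjd2 without P12 replicate 2 or 3 (adjusted p = 0.0546 and 0.0624) and without P60 replicate 1, 2 or 3 (adjusted p = 0.0556, 0.135 and 0.143) and for Tekt2 without P12 replicate 2 or 3 (adjusted p = 0.0897 and 0.086), without P60 replicate 1, 2 or 3 (adjusted p = 0.101, 0.128 and 0.168) and with scaling by library size alone (adjusted p = 0.0505).

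Whether the pull-down changed with age by more or less than the tissue was asked by a test of the difference over all 12 libraries, with the pull-down and supernatant of 1 lysate as a pair. The fit gave each gene 1 spread for both fractions, although the common coefficient of variation was 0.615 in the pull-downs and 0.0955 in the supernatants. Standard errors and adjusted p of the difference may therefore understate the spread of the pull-downs. Of 15311 genes 172 (1.12%) were called: 67 (0.438%) had a more positive and 105 (0.686%) a more negative age difference in the pull-down, or 115 and 65 with scaling by library size alone. In the supernatants 3182 genes were higher and 3168 lower at P60, so 41.6% of 15251 tested genes were called. Of the 256 genes higher in the pull-downs, 192 (75%) were higher in the supernatants, 9 were lower there, and 51 had a called difference in the positive direction. Of the 422 lower genes 322 (76.3%) were lower in the supernatants, 16 were higher, and 81 had a called difference in the negative direction. The counts of the difference ran from 22 to 151 in the positive and from 42 to 135 in the negative direction with each library and its pair left out, with the lowest without P60 replicate 3.

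The genes in which the pull-down rose beyond the tissue included those of POMC neurons and of neuropeptide Y receptors. The difference of log2 fold changes was 4.80 ± 0.41, adjusted p = 4.85e-07 for Pomc, and its supernatants stood at 7.90, 7.71 and 9.36 CPM at P12 and 26.1, 18.4 and 60.3 CPM at P60. It was 4.75 ± 0.32, adjusted p = 6.06e-09 for Cartpt, 6.40 ± 0.67, adjusted p = 6.65e-06 for Prdm12 and 3.69 ± 0.43, adjusted p = 2.56e-05 for Gal. Npy1r (3.19 ± 0.63, adjusted p = 0.0088) and Npy5r (7.77 ± 1.66, adjusted p = 0.0172) also passed, as did Gas2, Il13ra1, Pon2 and Rnf128. Asb4 passed at 2.49 ± 0.27, adjusted p = 9.8e-06 and Vgf at 1.56 ± 0.23, adjusted p = 0.000476, both with supernatant levels that were lower at P60. For Npy5r, Pon2, Il13ra1 and Gas2 the difference was not called with any 1 of the P60 replicates left out, whereas for Pomc, Cartpt and Prdm12 it was called with each library left out.

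In the other direction the fall of the pull-down exceeded that of the tissue for Mkrn3 (-5.74 ± 1.05, adjusted p = 0.00459), Avpr1b (-3.64 ± 0.66, adjusted p = 0.00423), Tnrc18 (-2.28 ± 0.25, adjusted p = 9.8e-06), Arid1b (-2.28 ± 0.21, adjusted p = 9.35e-07) and Bahcc1 (-2.33 ± 0.33, adjusted p = 0.000386). Arid1b stood at 152, 152 and 121 CPM at P12 and 130.4, 119 and 132 CPM at P60 in the supernatants. Dnmt3a and Tet1 fell in both fractions, and the difference was not called (-0.41 ± 0.19, adjusted p = 0.44; -0.29 ± 0.24, adjusted p = 0.744). Mlph, the melanophilin adaptor of vesicle transport, fell in the pull-downs (81.7, 40.8 and 51.2 CPM at P12 and 10.6, 11.7 and 14.1 CPM at P60) and stood at 4.20, 4.20 and 3.69 CPM at P12 and 4.75, 3.03 and 4.34 CPM at P60 in the supernatants. Cdr1 and Trf also had a more negative age difference in the pull-down. Cdr1 stood at 516, 751 and 626 CPM at P12 and 485, 172 and 209.8 CPM at P60 in the pull-downs, where P60 pull-down 1 was well above the other P60 libraries, and at 306, 273 and 245 CPM at P12 and 631, 582 and 682 CPM at P60 in the supernatants (difference -2.63 ± 0.28, adjusted p = 6.65e-06). A circular RNA, Cdr1as, is made from the opposite strand, and without a stated strand setting the reads of both cannot be told apart. Trf, the transferrin gene of oligodendrocytes, rose from 15.7 ± 5.60 CPM to 56.9 ± 11.6 CPM in the pull-downs and from 7.54 ± 0.820 CPM to 114 ± 2.88 CPM in the supernatants (SD, n = 3 each; difference -2.19 ± 0.36, adjusted p = 0.00151). In the pull-downs alone the call was lost for Cdr1 without P12 replicate 2 (adjusted p = 0.0694) and without P60 replicate 2 or 3 (adjusted p = 0.075 and 0.0987), and for Trf without P12 replicate 2 (adjusted p = 0.0656) and without P60 replicate 1 or 3 (adjusted p = 0.0898 and 0.135).

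**Figure D5:**
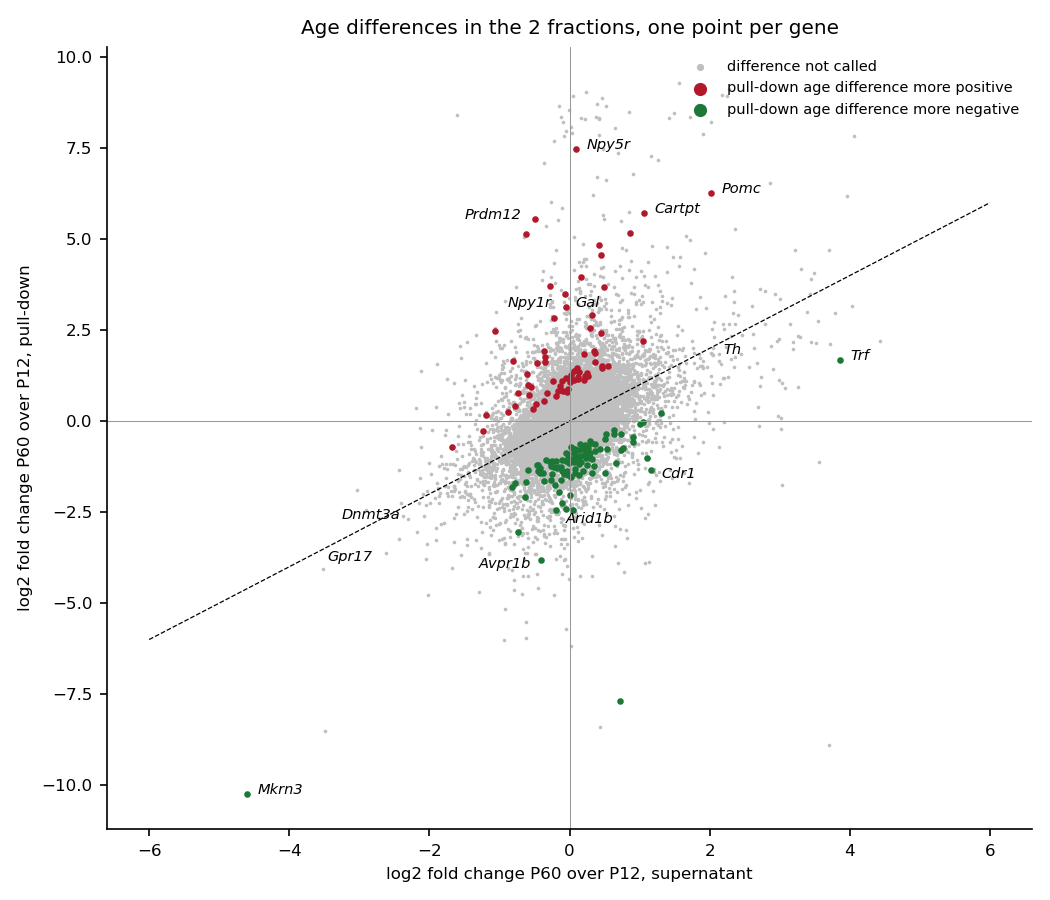
Log2 fold change, P60 over P12, in the supernatants (x axis) and the pull-downs (y axis), with 1 point per gene. Genes with a called difference are red where the pull-down value is the more positive and green where it is the more negative, and the dashed line marks equal values. Pomc, Cartpt, Prdm12 and Npy5r lie far above that line, Th and Gpr17 lie near it, and Trf, Cdr1 and Mkrn3 lie below it.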

How the data were processed

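Hypothalamic slices holding the arcuate nucleus were lysed and tagged ribosomes were bound to anti-GFP beads. RNA eluted from the beads (pull-down) and RNA left in the lysate (supernatant) were sequenced after depletion of ribosomal RNA with a stranded total RNA kit, although the labels name polyA RNA. The authors deposited whole-number read counts per gene for 19878 genes, from single-end reads counted with HTSeq after alignment by TopHat2 2.0.13 with Bowtie2 2.2.1 (build mm10), per the submitters' processing notes. No annotation and no strand setting of the counting is given in the sources used here. The series table equalled the sample files in all 12 libraries.

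CPM are the deposited counts divided by the library total, times 1e6, given as mean ± SD (n = 3). Genes that passed edgeR's filterByExpr (13570 in the pull-downs) were tested with edgeR 4.0.16 (limma 3.58.1, R 4.3.3), TMM normalization and the quasi-likelihood test, P60 against P12, with Benjamini-Hochberg adjustment over all tested genes and a threshold of 0.05. The pull-downs and the supernatants were fitted separately without pairing across ages, since the study describes a paired test only between pull-down and supernatant. The test of the difference used all 12 libraries with the lysate as a block. Alternatives were scaling by library size alone, DESeq2 1.42.0, no filter, at least 1 CPM in 3 libraries, each library left out, the replicate number as a block, a fit over all 12 libraries, and offsets for exonic length and GC content (lengths were found for 98.3% of genes). The code was tested on simulated counts. Median log2 fold changes of lists stand beside those of all genes and no set was tested. Counts of called list members are to be read beside the 1.89% of all tested genes called higher and the 3.11% called lower.

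The members and gene lists were chosen with earlier results of these data known. Genes were named by rule: the 12 largest log2 fold changes each way among called genes with at least 10 CPM on average in the higher group and groups without overlap, the 8 largest each way for the difference between fractions, called members and defining members of the lists, and the 5 most abundant genes at each age. Predicted genes, clones, small RNAs and histone genes were left out, and results for some genes are not reported here. Ratios on few reads carry 95% exact intervals, and a group at 0 was set to a floor of 3 counts. Intervals cover counting error only. Promoter windows were taken from RefSeq (GRCm38.p6), and exonic lengths and GC content from the GENCODE mouse annotation.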

Additional observations from a re-analysis of the deposited data

Results flagged for a closer look

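By edgeR's test of the difference over the 12 libraries, 172 genes had an age difference that departed between pull-downs and supernatants (adjusted p under 0.05). The 16 named here are the 8 largest each way under the naming rule. The values are log2 fold changes, P60 over P12, in the pull-down less those in the supernatant. The more positive ones were 7.772 for Npy5r, 6.404 for Prdm12, 4.801 for Pomc, 4.754 for Cartpt, 4.408 for Pon2, 4.355 for Il13ra1, 4.285 for Gas2 and 3.786 for Rnf128. The more negative ones were -5.744 for Mkrn3, -3.644 for Avpr1b, -2.633 for Cdr1, -2.341 for Mlph, -2.333 for Bahcc1, -2.283 for Tnrc18, -2.275 for Arid1b and -2.185 for Trf. In these 16 genes the fitted values of low genes, Npy5r and Mkrn3 above all, depend on the few reads of the lower group. The calls of Npy5r, Pon2, Il13ra1 and Gas2 were lost with any 1 of the P60 pairs left out, that of Rnf128 without P60 replicate 3, and that of Mlph without P12 replicate 1 or 3 or with any 1 of the P60 pairs left out.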

How the results depend on the processing

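The counts of called pull-down genes moved with the processing more than the directions did. Against 256 higher and 422 lower in the pull-downs, scaling by library size alone gave 445 and 263 (62.9% of calls higher, against 37.8%), DESeq2 gave 515 and 686, no filter on low counts 445 and 653, and a fit over all 12 libraries, with 1 spread per gene for both fractions, 1292 and 1469, and the cause was not tested. With 1 library left out they ran from 86 to 353 higher and from 161 to 463 lower. The stricter filter gave 269 and 400, and the length and GC correction 185 and 333. In the supernatants the fit over all 12 libraries, which shares the wider spread of the pull-downs, gave 303 higher and 293 lower. Left out in turn, their libraries gave 2702 to 2957 higher and 2698 to 2871 lower. Of the difference between the fractions, 67 more positive and 105 more negative became 115 and 65 with library size alone, 223 and 226 in DESeq2, 161 and 202 without a filter, and 31 and 70 with the length and GC correction. Leaving out a pair gave 22 to 151 and 42 to 135. The cause was not tested. The replicate numbers were not taken to pair the ages, since the study describes a paired test only between pull-down and supernatant. Correlations of the deviations of same-numbered libraries cannot decide it. Pull-down and supernatant of 1 lysate correlated at only 0.0206 to 0.0559. Across ages same-numbered libraries correlated at -0.018, -0.016 and 0.010 in the pull-downs, where not every library correlated best with its own number. In the supernatants they correlated at 0.0915, 0.0204 and 0.0553, and each correlated best with its own number. Rn45s rose with the replicate number in both fractions at both ages. Whether the numbers mark experiments shared by the ages was not tested. With the replicate number as a block the pull-down counts were 252 and 386 and those of the supernatants 3295 and 3279, 14 named genes lost and 1 gained a call in the pull-downs, and without the block of lysates the difference gave 61 and 89. Among the named genes, signs turned in these, none of which was called: Nkx2-1 with the length and GC correction (-0.030), without P12 replicate 1 (-0.23) and without P60 replicate 1 (-0.0087), Agrp without P12 replicate 1 (0.018), Npy without P12 replicate 3 (0.11), and Rn45s without P12 replicate 3 (0.036) and without P60 replicate 1 (0.17). With each library left out, Nkx2-1 ran from -0.23 to 0.48, Agrp from -3.29 to 0.018, Npy from -0.53 to 0.11 and Rn45s from -0.62 to 0.17. With 3 libraries a group and a wide spread, simulated pull-down changes of 1, 2 and 3 on the log2 scale were recovered in 16.4%, 53.7% and 69.7% of genes, so a gene not called may have changed.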

Other observations

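RNAs that are not translated were present in the pull-downs and changed as well. Of 16 tested, 2 rose and 3 fell. Rian, an imprinted non-coding RNA of the Dlk1 region, stood at 456, 697 and 509 CPM at P12 and 236, 218 and 229 CPM at P60 (log2 fold change -1.46 ± 0.21, adjusted p = 0.000775), and its neighbour Meg3 stood at 2594, 2171 and 2719 CPM at P12 and 854, 859.5 and 1517 CPM at P60 (log2 fold change -1.37 ± 0.24, adjusted p = 0.00329). Dlk1 itself rose. Miat, another nuclear RNA, fell by 1.24 ± 0.25 on the log2 scale (adjusted p = 0.00858). Gas5, a host of small nucleolar RNAs, rose by 2.04 ± 0.43 on the log2 scale (adjusted p = 0.0105) and Peg13 by 0.95 ± 0.21 on the log2 scale (adjusted p = 0.0152). Neither rise was called without P60 replicate 1 or 3, and 1 of them was called without P12 replicate 2 or P60 replicate 2.

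Several groups gave few or no calls, where 1.89% of all tested genes were higher and 3.11% lower. In the pull-downs edgeR called 0 of 14 hormone nuclear receptors (0 at an unadjusted p under 0.05 and 0 in DESeq2). It called 0 of 16 clock genes (3 higher at an unadjusted p under 0.05, 0 in DESeq2), while 11 of 16 were higher in the supernatants. It called 0 of 19 immediate early genes (2 higher at an unadjusted p under 0.05, 1 in DESeq2), genes that respond to neuronal activity and to tissue handling. It called 0 of 15 MHC class I and complement genes (1 higher at an unadjusted p under 0.05, 0 in DESeq2), and 0 of 12 genes of GABA and glutamate transmission (1 higher and 2 lower at an unadjusted p under 0.05, 1 higher in DESeq2). Gad1, which makes GABA, stood at 396, 344 and 322 CPM at P12 and 559, 687 and 537 CPM at P60 (log2 fold change 0.59 ± 0.19, adjusted p = 0.0971). It was called in DESeq2 (adjusted p = 0.0252), with scaling by library size alone (adjusted p = 0.0282) and in the fit over all 12 libraries (adjusted p = 0.0117). Of 25 sterol genes Srebf2, the master regulator of cholesterol synthesis, rose by 1.05 ± 0.25 on the log2 scale (adjusted p = 0.022) and Mvd, an enzyme of the mevalonate pathway, fell with a log2 fold change of -2.38 ± 0.59, adjusted p = 0.0264. The calls were lost for Srebf2 without P60 replicate 1 or 3 (adjusted p = 0.0972 and 0.115), and for Mvd without P12 replicate 1 (adjusted p = 0.0993) and without P60 replicate 1, 2 or 3 (adjusted p = 0.125, 0.0681 and 0.145). Of 26 endoplasmic reticulum genes the disulphide isomerase P4hb rose by 1.15 ± 0.30 on the log2 scale (adjusted p = 0.0366), a call lost for P4hb without P12 replicate 2 or 3 (adjusted p = 0.0723 and 0.0676), without P60 replicate 1, 2 or 3 (adjusted p = 0.122, 0.0569 and 0.267) and with the length and GC correction (adjusted p = 0.117). Of 17 regulators of embryonic POMC cells Otp fell and 0 rose (1 at an unadjusted p under 0.05, 0 in DESeq2), and of 14 other neuropeptides of the hypothalamus Vgf rose and 0 fell (1 at an unadjusted p under 0.05, 0 in DESeq2).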
